A study of Homo sapiens with 12 samples.

Results

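Human proximal tubular cells (HPTC) that had received IL-1β were compared directly with HPTC that had received the sodium-glucose cotransporter 2 (SGLT2) inhibitor empagliflozin (Empa), with no control array entering the comparison. The 8 arrays chosen by their titles, of 12 in the series, were 4 with IL-1β (10 ng/mL) and 4 with Empa (500 nM). Each array held RNA from cells kept without serum and supplements for 24 h and harvested 24 h after stimulation, at a glucose concentration that the study calls normoglycemic. The titles name HK-2 cells, an immortalized line from adult human kidney, and RPTEC/TERT1 cells, a line immortalized with telomerase, with 2 replicate numbers of each. The other 4 arrays are unstimulated controls and appear only as levels beside the results. No genetic change separates the treatments, and combined treatment with both agents was not on the 8 arrays. Each of the 4 slides carried 1 array per treatment of a single line and replicate number, so that every comparison was made within a slide. The IL-1β array always lay in position 2 and the Empa array in position 3, and position and treatment cannot be told apart. The study's methods call the replicates biological duplicates, whereas the labels name no separate cultures. P-values here measure the spread between these slides, which may be technical in part.

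IL-1β is a cytokine that binds its receptor IL1R1 and, through MYD88 and kinases of the IRAK family, activates the transcription factor NF-κB, which switches on chemokines, cytokines and its own inhibitors. Proximal tubular cells reabsorb glucose, amino acids and filtered protein, burn fatty acids for energy, and can secrete chemokines that attract leukocytes. Empa inhibits SGLT2, the apical glucose transporter of the early proximal tubule encoded by SLC5A2.

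A level is given here as the log2 signal of a probe relative to the 75th percentile of all probes of its array, and a difference is the IL-1β level minus the Empa level on the same slide. The 75th percentile itself lay between 310 and 735 signal units over the 8 arrays, and between 55.6% and 63.1% of probes were well above background. The line labels were contradicted by the arrays. Over 15780 probes that cleared background on each of the 8 arrays, the IL-1β array labelled HK-2 replicate 1 correlated with that labelled RPTEC replicate 2 at r = 0.984 and with that labelled HK-2 replicate 2 at r = 0.870, and the 4 Empa arrays showed the same order, at 0.960 and 0.854. All 12 samples also carry the same source name. The lines are therefore named below only as labels, and results are given slide by slide, in the order HK-2 replicate 1, HK-2 replicate 2, RPTEC replicate 1 and RPTEC replicate 2. Of 7 leukocyte, 2 endothelial, 5 fibroblast and 3 distal nephron marker genes that could be tested, none passed the test, and the defining markers CD163, TEK, PDGFRB and AQP2 were not well above background on any of the 8 arrays. The tubule factor PAX8 was well above background on every array, whereas HNF4A was so on none.

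Genes higher with IL-1β included 6 chemokines, 5 cytokines and colony-stimulating factors, 4 genes of the NF-κB subunits and feedback list and 5 matrix genes, and those higher with Empa included the transporter scaffold PDZK1, the fatty acid transporter SLC27A2, the interferon-induced IFIT1 and IFIT2 and the growth factor receptor FGFR2. Among 16128 genes tested, 3872 had an unadjusted p under 0.05, and 512 (3.17%) passed an adjusted p of 0.05 in limma with Benjamini-Hochberg adjustment. Of these, 222 (1.38% of genes tested) were higher with IL-1β and 290 (1.80%) were higher with Empa, and all 512 differed in the same direction on 4 of 4 slides. The genes higher with IL-1β differed more widely in size, with a median difference of 1.87 and an upper quartile of 3.06, and 29 of them were over 16-fold apart. The genes higher with Empa had a median difference of 1.60 in size and an upper quartile of 2.11, and 0 were over 16-fold apart. Over all genes tested the median difference was -0.06. The number of genes depended on single slides, since 17 genes passed without the slide of HK-2 replicate 1, 0 passed without that of RPTEC replicate 2 (2138 at an unadjusted p under 0.05), 243 passed without HK-2 replicate 2 and 318 without RPTEC replicate 1. It was 0 when the slides were not matched (1348 at an unadjusted p under 0.05) and 93 under another background correction, of which 59 were higher with IL-1β.

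**Figure D1:**
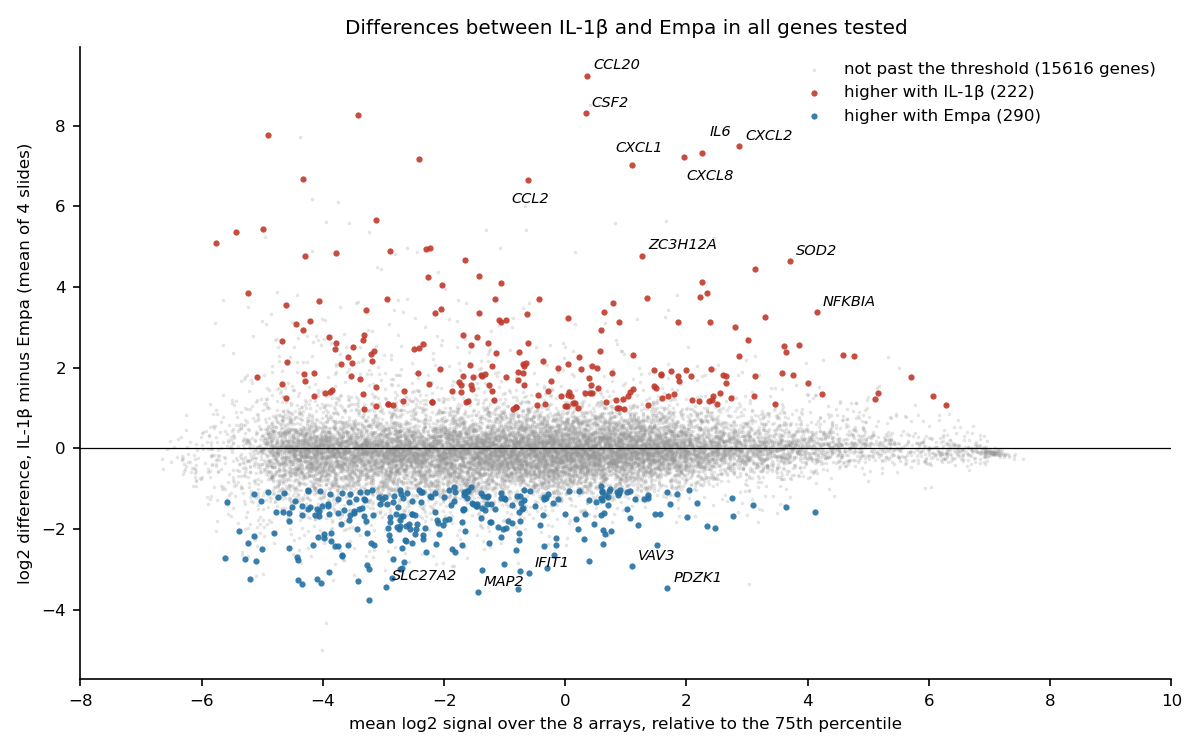
Mean log2 signal over the 8 arrays (x axis, relative to the 75th percentile) against the log2 difference, IL-1β minus Empa, averaged over 4 slides (y axis) for all 16128 genes tested. Red points are the 222 genes higher with IL-1β, which reached 9.24, and blue points the 290 higher with Empa, which reached 3.74 in size; grey points did not pass the test.

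Of 31 chemokine genes listed, 15 could be tested and 6 passed the test, against 3.17% of all genes. All 6 were higher with IL-1β, and the median difference over the 15 was 2.06. CXCL2, a neutrophil attractant, had levels of 7.17, 6.19, 5.80 and 7.27 with IL-1β and of -2.39, 0.70, 0.96 and -2.81 with Empa. The lowest IL-1β array lay above the highest Empa array, and the 4 slides differed by 9.56, 5.49, 4.84 and 10.08. The mean difference was 7.49 ± 0.98 (moderated SE from limma, as for every ± below, n = 4 slides, adjusted p = 0.0248), or 180-fold. A further CXCL2 probe gave 7.50. CXCL8 (interleukin-8), also a neutrophil attractant, differed by 7.23 ± 1.10 (adjusted p = 0.0331), and its Empa levels ranged from -4.03 to 0.84. CXCL1, a close paralog of CXCL2, had IL-1β levels of 7.38, 1.98, 1.64 and 7.47 and Empa levels of -1.37, -2.99, -3.62 and -1.69. Its groups did not overlap, its mean difference was 7.03 ± 0.81 (adjusted p = 0.0207), and 2 of its IL-1β spots were saturated. A further CXCL1 probe disagreed in size, since it gave 3.18 and was higher with IL-1β on 3 of 4 slides.

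CCL20, which attracts cells that carry the receptor CCR6, had a fitted difference of 9.24 ± 1.66 (adjusted p = 0.0483). Its IL-1β levels were 5.41, 4.46, 4.58 and 5.45, whereas its Empa levels were -7.21, -0.76, -0.68 and -8.40. The Empa probe was well above background on only 2 arrays, those of HK-2 replicate 2 and RPTEC replicate 1, where the differences were 5.22 and 5.27, and the sizes on the other two slides rest on signals not well above background. CCL2 (monocyte chemoattractant protein-1), which recruits monocytes, had levels of 7.29, -1.38, -2.55 and 7.48 with IL-1β and of -0.81, -6.47, -7.17 and -1.36 with Empa. The IL-1β and Empa levels overlapped across slides but not within them, with differences of 8.11, 5.09, 4.61 and 8.84. The mean difference of CCL2 was 6.66 ± 0.77 (adjusted p = 0.0212), with 2 saturated IL-1β spots and 2 Empa arrays well above background. The unstimulated CCL2 levels of -0.05, -6.02, -6.32 and -0.12 were measured well above background on the slides HK-2 replicate 1 and RPTEC replicate 2, where they exceeded the Empa level, and on neither of the others, where the Empa arrays were not well above background either. CXCL5 differed by 4.44 ± 0.54 (adjusted p = 0.0223). Among the 9 chemokines that did not pass, values ran from 3.07 for CCL28 to -2.87 for CXCL14.

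**Figure D2:**
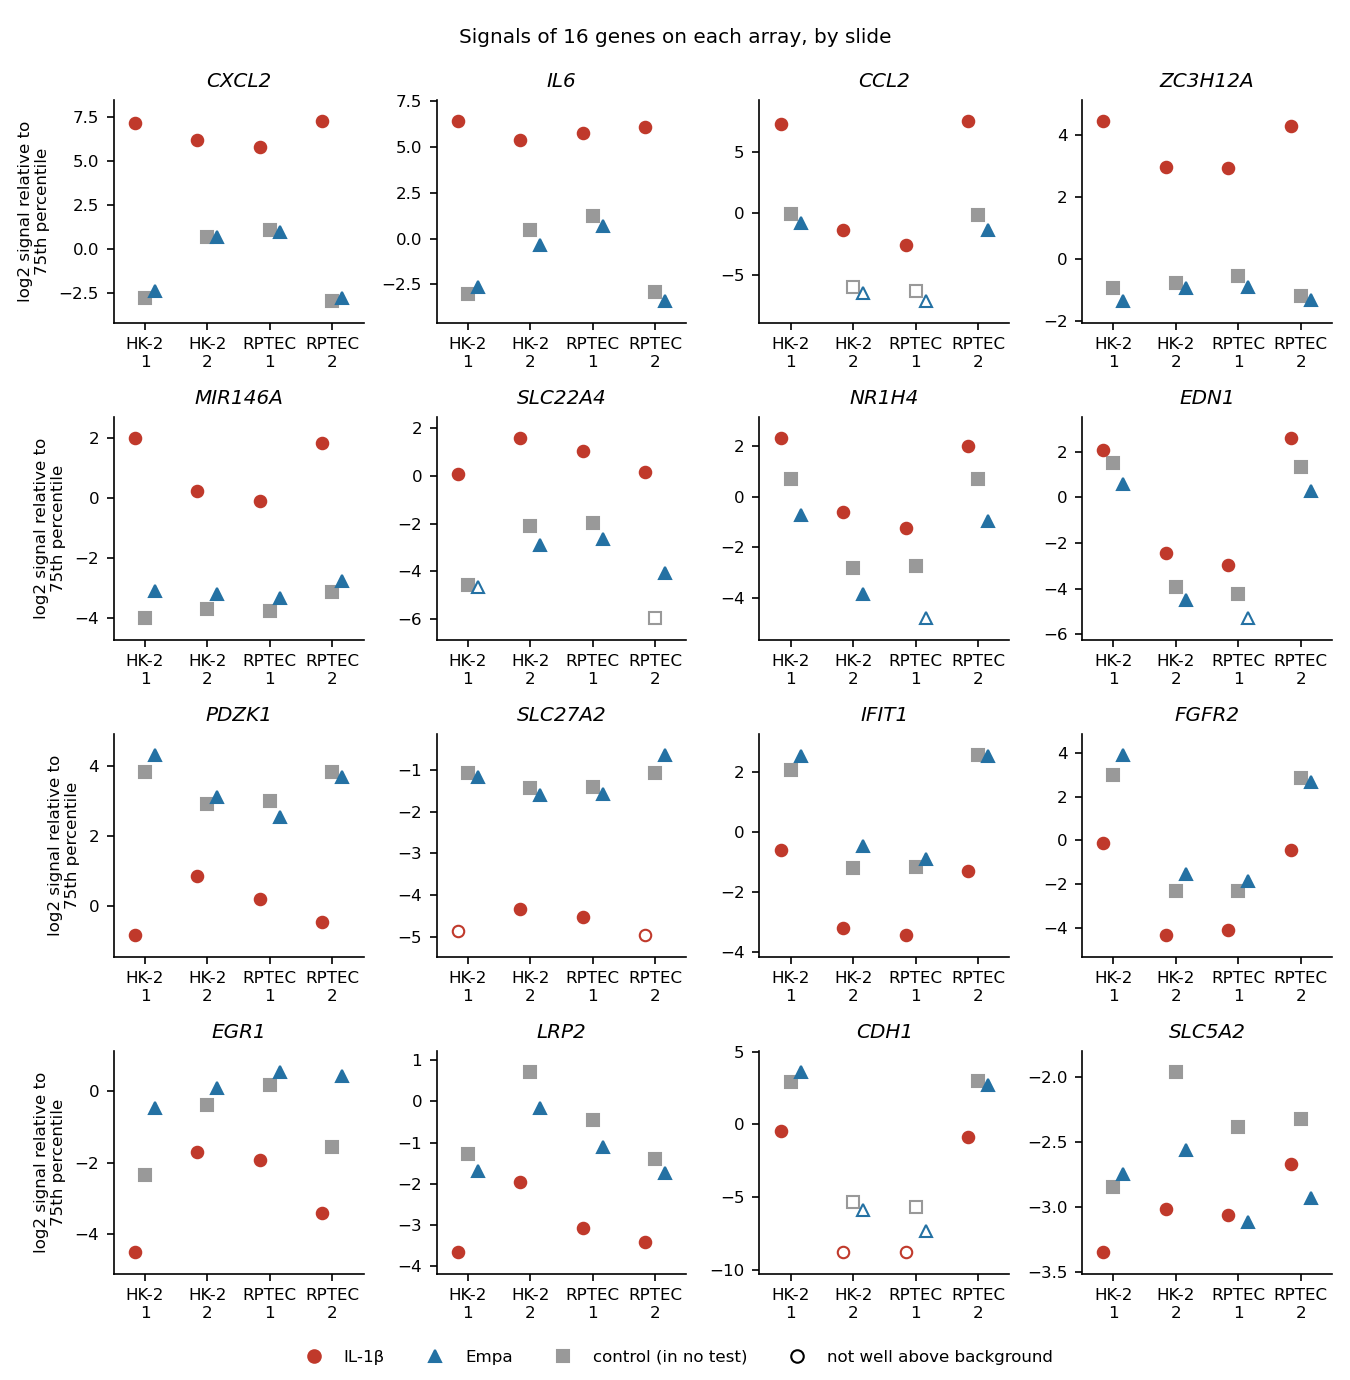
Log2 signal relative to the 75th percentile (y axis, a separate scale in each panel) on the 4 slides (x axis) for 16 genes: red circles IL-1β, blue triangles Empa, grey squares the control array of the slide, which entered no test, and open symbols arrays not well above background. CXCL2 with IL-1β lay between 5.80 and 7.27 on every slide, whereas CCL2 and CDH1 fell into high and low slides under each treatment, and the SLC5A2 symbols changed order between slides.

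Of 18 cytokines and colony-stimulating factors tested, 5 passed, against 3.17% of all genes. All 5 were higher with IL-1β, and the median difference over the 18 was 1.69. IL6, the inducer of acute-phase proteins, had levels of 6.41, 5.37, 5.78 and 6.09 with IL-1β and of -2.61, -0.34, 0.71 and -3.41 with Empa. Every IL-1β array lay above every Empa array, and the mean difference was 7.33 ± 0.82 (adjusted p = 0.0198), whereas a further IL6 probe gave 4.94. CSF2 (granulocyte-macrophage colony-stimulating factor) differed by 8.31 ± 1.34 (adjusted p = 0.0385), with similar IL-1β levels of 4.26 to 4.72 and with 2 Empa arrays well above background. CSF3 (granulocyte colony-stimulating factor) was not well above background on any Empa array and was at least 31.8-fold higher with IL-1β (adjusted p = 0.0223). Such a bound sets the mean IL-1β level against the detection limit of each Empa array, taken as the dimmest signal that still cleared background or the probe's own signal if brighter. IL11, a cytokine of the interleukin-6 family, differed by 4.74, 3.69, 3.55 and 5.00 on the 4 slides, a mean of 4.25 ± 0.31 (adjusted p = 0.00964), with 2 Empa arrays well above background. LIF, of the same family, differed by 1.83 ± 0.33 (adjusted p = 0.0478). Its slides ran from 1.20 to 2.92, among the 5 widest relative ranges of passing genes well above background on all 8 arrays. TNF differed by 3.95 (adjusted p = 0.155) and IL18 by -1.10 (adjusted p = 0.101), and neither passed.

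NF-κB subunits and their inhibitors lay on the IL-1β side throughout. Of 18 such genes tested, 18 had a positive mean difference, 11 were higher with IL-1β on all 4 slides, and 4 passed the test. Over all genes tested 44.5% were positive and 3.17% passed, and 2416 of 16128 were higher with IL-1β on all 4 slides. The median of the 18 was 1.82, and it ranged from 1.21 without HK-2 replicate 1 to 2.16 without RPTEC replicate 1. ZC3H12A, an RNase that degrades cytokine mRNA, had levels of 4.43, 2.96, 2.95 and 4.28 with IL-1β and of -1.35, -0.92, -0.88 and -1.33 with Empa. The groups were far apart on each slide, with a mean difference of 4.78 ± 0.41 (adjusted p = 0.0126), or 27.4-fold. NFKBIA (IκBα), which holds NF-κB in the cytoplasm, differed by 4.08, 2.64, 2.11 and 4.67, a mean of 3.38 ± 0.46 (adjusted p = 0.0271). TNIP1, a partner of the deubiquitinase A20, differed by 1.87 ± 0.22 (adjusted p = 0.0212). The genes of the subunits themselves, NFKB1 (1.88, adjusted p = 0.0964), RELB (1.83, adjusted p = 0.230) and RELA (0.98, adjusted p = 0.231), did not pass. Of 20 genes of IL-1 receptor signaling, 1 passed, which with 3.17% of all genes passing is no result about the list. It was IRAK2, a kinase of the receptor complex, with differences of 4.54, 2.30, 2.09 and 4.61 (mean 3.38 ± 0.52, adjusted p = 0.0330), and the median of the 20 was 0.01. IL1R1 differed by 1.12 ± 0.31 (adjusted p = 0.106) and the receptor antagonist gene IL1RN by -0.19 ± 0.19 (adjusted p = 0.577).

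The transcript that the array names MIR146A, the precursor of a microRNA that targets IRAK1 and TRAF6, had levels of 1.98, 0.24, -0.12 and 1.84 with IL-1β and of -3.11, -3.21, -3.32 and -2.77 with Empa. Each IL-1β array exceeded each Empa array, and the mean difference was 4.09 ± 0.36 (adjusted p = 0.0126). The probe reports on the long precursor transcript and not on the mature microRNA, whose RefSeq sequence (GRCh38.p14, chr5:160485372-160485393, plus strand) is shown with its seed, bases 2 to 8, in capitals.
hsa-miR-146a-5p: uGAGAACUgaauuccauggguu

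The start sites of these genes were searched for a κB motif, to show the letters that NF-κB is known to read, within 250 bases before and 50 after the start in RefSeq (GRCh38.p14), on both strands, for the symbols with a single entry. A match was present in 22 of 106 promoters of genes higher with IL-1β (20.8%), in 11 of 148 of genes higher with Empa (7.43%), in 12.7% of the 8093 promoters of genes tested and in 10.5% of all 22114 in the table. A match describes the letters and does not show binding. The windows of 5 genes that were higher with IL-1β are given 5′ to 3′ on the strand of the gene, with the match in capitals, and each of these matches starts between 73 and 81 bases before the start, those of CCL20 and NFKBIA read on the opposite strand. Matches of other named genes lay elsewhere, at 70 bases in CLDN1, 132 in SLC22A4, 188 in ITGA1 and 244 in PTGER4. CXCL2 lies at chr4:74099244-74099293 (minus strand), CXCL1 at chr4:73869294-73869343 (plus), IL6 at chr7:22727107-22727156 (plus), CCL20 at chr2:227813743-227813792 (plus) and NFKBIA at chr14:35404801-35404850 (minus). CXCL1 and CXCL2 share the same capitals and nearly the same neighbouring bases, and in both a second match on the other strand overlaps the one shown.
CXCL2: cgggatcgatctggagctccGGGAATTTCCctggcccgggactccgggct
CXCL1: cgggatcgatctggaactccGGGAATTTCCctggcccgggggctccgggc
IL6: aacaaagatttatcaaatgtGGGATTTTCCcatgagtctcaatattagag
CCL20: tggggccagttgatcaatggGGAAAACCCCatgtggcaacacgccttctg
NFKBIA: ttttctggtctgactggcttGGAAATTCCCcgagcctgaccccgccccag

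Acute-phase, complement and antimicrobial genes had the highest list median, 2.83 over 24 genes. Of the 24, 18 were higher with IL-1β on all 4 slides, against 2416 of all 16128 genes. The test was passed by 2 of the 24, against 3.17% of all genes. FCAMR, an Fc receptor for IgA and IgM, was not well above background with Empa and was at least 86.1-fold higher with IL-1β (adjusted p = 0.0136), whereas a further FCAMR probe differed by 3.34 on the log2 scale. CD59, which blocks the complement pore, differed by 2.12, 1.73, 1.63 and 2.51, a mean of 2.00 ± 0.21 (adjusted p = 0.0179). LCN2, which encodes the injury marker NGAL and was picked after its values were seen, differed by 13.99, 3.32, 3.26 and 13.51. It was well above background on 2 of the 4 Empa arrays, and its mean of 8.52 ± 2.16 did not pass (adjusted p = 0.0941). SAA1 (5.64, adjusted p = 0.0615) and C3 (5.22, adjusted p = 0.101), also picked after their values were seen, had the same slide pattern, with 2 large and 2 smaller differences. Among adhesion molecules 0 of 10 passed (3 at an unadjusted p under 0.05, against 3872 of all 16128 genes), and ICAM1 differed by 2.68 (adjusted p = 0.0953).

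The gap between slides recurred in the 512 genes. The widest difference of a gene fell on the slide labelled HK-2 replicate 1 or RPTEC replicate 2 in 169 of the 222 genes higher with IL-1β (58 and 111), and in 230 of the 290 higher with Empa (160 and 70). This count was not made over all genes tested, so it is not shown to be particular to the 512. The median differences of the 222 genes were 2.06, 1.73, 1.71 and 2.13 on the 4 slides, and those of the 290 were -1.85, -1.40, -1.34 and -1.67. Over all genes tested, the slide medians were -0.24, -0.06, -0.03 and -0.02. The slide differences correlated across genes at r = 0.769 between HK-2 replicate 1 and RPTEC replicate 2 and at r = 0.816 between HK-2 replicate 2 and RPTEC replicate 1, against 0.273 to 0.477 for the other 4 pairs of slides. Genes share their arrays and are not independent replicates. A test of whether the difference itself differed between the lines as labelled gave 0 genes (69 at an unadjusted p under 0.05) in limma. Each label holds a slide of either correlated pair, so the gap between the pairs falls into the residual of this test. Its 0 therefore does not show that the slides or the lines respond alike. The most even genes over slides were the collagen-binding integrin ITGA1, at 2.64, 2.87, 2.88 and 2.83, KLHL14 at -2.32, -2.26, -2.24 and -2.51, ASAP3 at -1.38, -1.49, -1.48 and -1.56, MTARC2 at -1.26, -1.12, -1.17 and -1.17 (a further probe of it gave 0.01 on the first slide), and MEGF9 at -2.09, -2.28, -2.31 and -2.37. The least even included the bradykinin B2 receptor gene BDKRB2, whose largest difference of 3.34 fell on the slide HK-2 replicate 2, and CDC42EP2, TP53TG1 and DNAJC6.

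**Figure D3:**
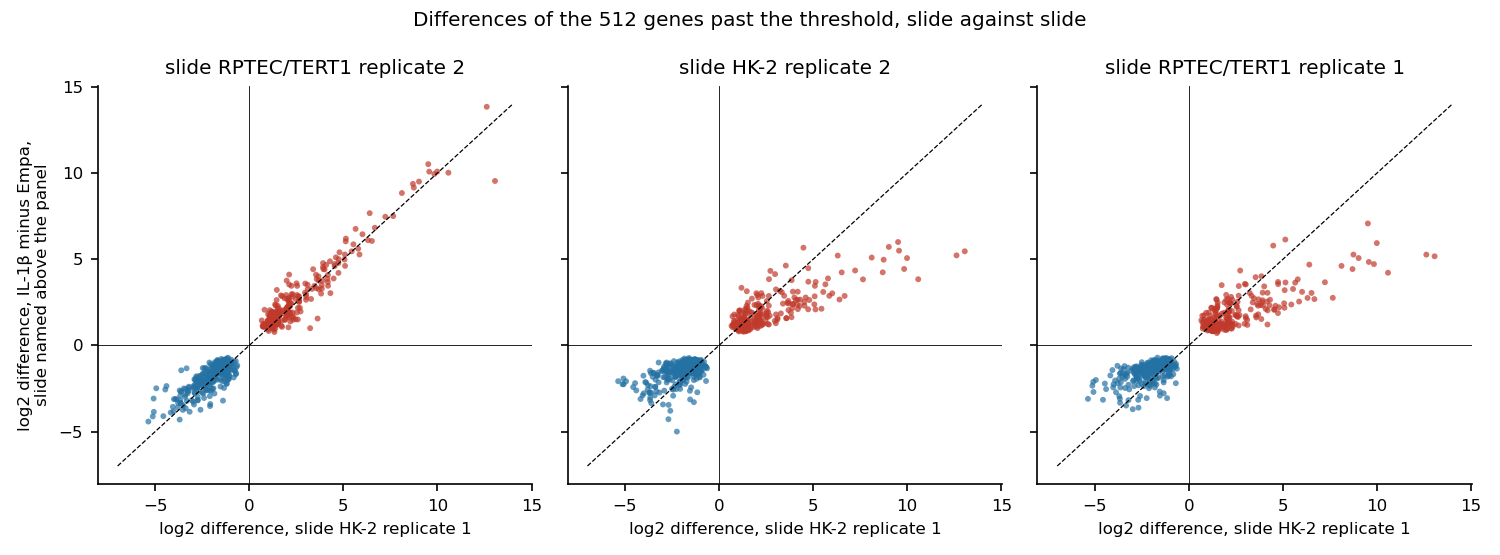
Log2 difference, IL-1β minus Empa, on the slide labelled HK-2 replicate 1 (x axis) against each of the other slides (y axis) for the 512 genes that passed the test, red higher with IL-1β and blue higher with Empa; the dashed line marks equal differences. Points follow the line against RPTEC replicate 2, and in the other panels the largest IL-1β differences lie below it, as for CCL20 at 12.62 against 5.22 and 5.27.

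Genes of matrix turnover and basement membrane were higher with IL-1β where they passed. Of 11 matrix proteases, plasminogen activators and inhibitors, 3 passed, against 3.17% of all genes. The interstitial collagenase gene MMP1 was at least 15.3-fold higher with IL-1β (adjusted p = 0.0460), without an Empa array well above background. PLAT, the tissue plasminogen activator gene, had IL-1β levels of -0.87, 3.23, 3.49 and -0.15 and Empa levels of -4.79, 0.12, 0.43 and -4.92. Its levels overlapped across slides, and within slides it differed by 3.92, 3.12, 3.06 and 4.77 (mean 3.72 ± 0.33, adjusted p = 0.0126), with 2 Empa arrays well above background. MMP14, a membrane-bound protease, differed by 1.21 ± 0.20 (adjusted p = 0.0412). Of 32 extracellular matrix and TGF-β genes, 5 passed, against 3.17% of all genes, and all 5 were higher with IL-1β. The median of the list was 0.51, which fell to 0.03 under the other background correction. LAMB3, which encodes a laminin chain of the basement membrane, differed by 3.94, 2.40, 2.31 and 4.42 (mean 3.27 ± 0.41, adjusted p = 0.0235). The matrix protein gene TNC differed by 1.96 ± 0.21 (adjusted p = 0.0185) and SPP1, which encodes osteopontin, by 1.78 ± 0.23 (adjusted p = 0.0235).

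EDN1, the gene of the vasoconstrictor endothelin-1, had levels of 2.09, -2.43, -2.97 and 2.58 with IL-1β and of 0.57, -4.48, -5.29 and 0.29 with Empa. Its levels set the 4 slides apart more than the treatments did, but IL-1β was higher on each slide, by 1.52, 2.04, 2.32 and 2.29. The mean difference was 2.04 ± 0.21 (adjusted p = 0.0160), or 4.12-fold, with 3 Empa arrays well above background, and a further EDN1 probe gave 1.60. The control levels of 1.48, -3.92, -4.26 and 1.33 lay between both treatments on every slide. EDN2, the gene of the related endothelin-2, went the other way, with levels of -1.35, -3.51, -3.88 and -1.01 with IL-1β and of 3.12, -1.32, -1.66 and 1.56 with Empa. Within each slide Empa was higher, with a mean difference of -2.86 ± 0.42 (adjusted p = 0.0308), and the slide HK-2 replicate 1 stood apart from the rest.

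Prostaglandin genes were also higher with IL-1β where they passed, in 5 of 14 tested, against 3.17% of all genes. The carrier SLCO2A1, which takes up prostaglandins, differed by 4.15, 2.36, 2.54 and 3.87 (mean 3.23 ± 0.36, adjusted p = 0.0198). PTGS1, the constitutive cyclooxygenase, was at least 7.06-fold higher with IL-1β (adjusted p = 0.0160), and its control array was well above background on 3 slides. The prostaglandin E2 receptor genes PTGER4 and PTGER2 differed evenly over slides, by means of 1.64 ± 0.18 (adjusted p = 0.0179) and 1.00 ± 0.16 (adjusted p = 0.0387). The synthase gene PTGES2 differed by 1.58 ± 0.26 (adjusted p = 0.0383). HPGD, which degrades prostaglandins, had the lowest difference of the list, -2.65, and did not pass (adjusted p = 0.111). The inducible cyclooxygenase gene PTGS2 could not be tested, since its probe was well above background on 2 of the 8 arrays.

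Of 38 interferon-stimulated and MHC class I genes tested, 1 was higher with IL-1β, against 1.38% of all genes, and 2 with Empa, against 1.80%. Counts this near those shares are no result about the list, whose median difference was 0.38. IFIT1, which binds viral RNA, had levels of -0.62, -3.21, -3.44 and -1.31 with IL-1β and of 2.56, -0.47, -0.89 and 2.54 with Empa. Empa was higher on each slide, with differences of -3.17, -2.74, -2.55 and -3.85 (mean -3.08 ± 0.26, adjusted p = 0.0126). The control levels of IFIT1, 2.06, -1.20, -1.15 and 2.57, lay near those with Empa. IFIT2, of the same family, was also higher with Empa, with a difference of -1.64 ± 0.22 (adjusted p = 0.0253), and a further probe gave -1.99. The GTPase gene GBP1 was higher with IL-1β, by 1.53 ± 0.26 (adjusted p = 0.0432). Other members spread on both sides without passing, from GBP2 at 3.17 (adjusted p = 0.0819) to RSAD2 at -1.96 (adjusted p = 0.0814).

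The letters GAAANNGAAA, a core of the interferon-stimulated response element, were searched in the same promoters on both strands. They were found in 3.77% of promoters of genes higher with IL-1β, 2.03% of those higher with Empa, 2.93% of genes tested and 3.81% of all. The windows of IFIT1 (chr10:89392487-89392536, plus strand) and GBP1 (chr1:89065306-89065355, minus strand) show that a gene higher with Empa and a gene higher with IL-1β both hold such a match, here read on the opposite strand and capitalized. IFIT1 holds a second match 103 bases before the start.
IFIT1: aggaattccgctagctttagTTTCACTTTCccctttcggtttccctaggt
GBP1: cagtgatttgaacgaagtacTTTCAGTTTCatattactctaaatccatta

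The tubular transport genes that passed lay in both directions. Of 29 transporters and brush border genes tested, 2 were higher with IL-1β and 2 higher with Empa, against 1.38% and 1.80% of all genes. The median was -0.07, and 12 of the 48 listed were not well above background on any of the 8 arrays. PDZK1, a scaffold that anchors apical transporters, had levels of -0.83, 0.85, 0.21 and -0.44 with IL-1β and of 4.30, 3.11, 2.56 and 3.68 with Empa. Every Empa array exceeded every IL-1β array, and the difference was -3.46 ± 0.53 (adjusted p = 0.0330). The PDZK1 controls, at 3.84, 2.90, 2.99 and 3.82, were close to the Empa arrays. LRP2 (megalin), the endocytic receptor for filtered protein, differed evenly, by -1.95, -1.81, -1.97 and -1.68, with a mean of -1.85 ± 0.17 (adjusted p = 0.0134). SLC22A4, a carrier of organic cations and ergothioneine, went the other way, at 4.74, 4.48, 3.68 and 4.21 (mean 4.27 ± 0.23, adjusted p = 0.00551). SLC7A7, a subunit of the basolateral exporter of cationic amino acids, differed by 2.47 ± 0.31 (adjusted p = 0.0224), with 2 Empa arrays well above background.

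SLC5A2, which encodes the target of Empa, was well above background on all 8 arrays, with levels of -3.35, -3.02, -3.06 and -2.67 with IL-1β and of -2.74, -2.56, -3.11 and -2.93 with Empa. The groups overlapped, the slides differed in sign (-0.60, -0.46, 0.05 and 0.26), and the mean of -0.19 ± 0.22 did not pass (adjusted p = 0.634). SLC5A1, which encodes the related transporter SGLT1, was not well above background on any of the 8 arrays and was not tested.

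Among 18 renal lineage factors and nuclear receptors, only NR1H4, the bile acid receptor FXR, passed, against 3.17% of all genes. Its levels were 2.29, -0.59, -1.25 and 1.98 with IL-1β and -0.73, -3.83, -4.78 and -0.97 with Empa. The slides split into high and low levels under both agents, but the differences were nearly equal, at 3.02, 3.25, 3.53 and 2.96. The mean was 3.19 ± 0.19 (adjusted p = 0.00551), or 9.13-fold, and the controls, at 0.70, -2.79, -2.73 and 0.68, lay between the treatments on all 4 slides. The remaining 17 genes lay between 0.89 for PPARG and -1.82 for LHX1.

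Of 33 genes of fatty acid uptake and oxidation, 3 passed, against 3.17% of all genes. On all 4 slides 19 of the 33 were higher with Empa, against 3544 of all 16128 genes, and the median of the list was -0.42. SLC27A2, a fatty acid transporter and very-long-chain acyl-CoA synthetase, had levels of -4.87, -4.34, -4.52 and -4.96 with IL-1β, 2 of them well above background, and of -1.17, -1.62, -1.57 and -0.65 with Empa. The groups did not overlap, and the difference was -3.42 ± 0.30 (adjusted p = 0.0126). The acyl-CoA synthetase genes ACSL5 (2.40 ± 0.41, adjusted p = 0.0430) and ACSL4 (2.31 ± 0.20, adjusted p = 0.0126) were higher with IL-1β. These 3 genes were the only members that passed, and none encodes an enzyme of the β-oxidation spiral itself.

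Of 22 genes of cholesterol synthesis and uptake, 16 were higher with IL-1β on all 4 slides, against 2416 of all genes, with a median of 0.87. INSIG1, which retains the sterol sensor SCAP in the endoplasmic reticulum, had levels of 5.21, 3.33, 2.79 and 5.72 with IL-1β and of 0.13, 0.48, 0.61 and 0.45 with Empa. The lowest IL-1β level exceeded the highest Empa level, and the difference was 3.84 ± 0.58 (adjusted p = 0.0326). The sterol reductase gene TM7SF2 was higher with Empa, with a difference of -1.11 ± 0.19 (adjusted p = 0.0425), and the remaining 20 genes did not pass. Of all genes 1.38% passed as higher with IL-1β and 1.80% as higher with Empa, against 1 of the 22 in each direction. In the list 16 genes had an unadjusted p under 0.05. Over all 16128 genes tested 3872 did, which is the share to set beside this count and those below. Of 26 glycolysis and hypoxia genes, 18 were higher with IL-1β on all 4 slides, the median was 0.82, and 17 had an unadjusted p under 0.05. Only the hexokinase 2 gene HK2 of that list passed (1.36 ± 0.21, adjusted p = 0.0358), against 3.17% of all genes, and 1 of 26 is near that share. PGK1, counted both there and among 12 reference genes, differed by 1.27 (adjusted p = 0.0718), whereas the reference genes as a list had a median of 0.02 and none passed. The 31 oxidative phosphorylation genes lay between -0.56 and 0.76, with a median of 0.02 and 0 past the test (4 at an unadjusted p under 0.05). Of 18 genes of gluconeogenesis and amino acid metabolism, 0 passed in limma (7 at an unadjusted p under 0.05), and the kynureninase gene KYNU, not well above background with Empa, was at least 25.2-fold higher with IL-1β without passing (adjusted p = 0.0943).

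Among antioxidant genes and metallothioneins, 3 of 23 were higher with IL-1β and 1 was higher with Empa, against 1.38% and 1.80% of all genes. The mitochondrial superoxide dismutase gene SOD2 differed by 3.02 to 6.45 over the slides (mean 4.65 ± 0.67, adjusted p = 0.0303), with 2 saturated IL-1β spots. SLC39A14, a zinc and iron importer, differed by 2.55 ± 0.40 (adjusted p = 0.0363) and the metallothionein MT1G by 1.07 ± 0.18 (adjusted p = 0.0387). Catalase (CAT), which breaks down hydrogen peroxide, was higher with Empa, at -1.94, -1.49, -1.41 and -2.13 (mean -1.74 ± 0.20, adjusted p = 0.0213). Of 34 cell cycle genes only CDKN2B passed, which encodes an inhibitor of cyclin-dependent kinases, against 3.17% of all genes. Its fitted difference of 3.85 ± 0.68 (adjusted p = 0.0465) rests on 1 Empa array well above background and 3 that were not, 2 of them at the floor of the signal scale, and the list median was -0.13. Of 19 ER stress and amino acid response genes only CEBPB, a transcription factor also known from inflammation, passed (2.28 ± 0.41, adjusted p = 0.0474), against 3.17% of all genes.

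Among 17 epithelial and injury genes, 1 junction gene passed in each direction. Of all genes 1.38% were higher with IL-1β and 1.80% higher with Empa. CDH1 (E-cadherin) had levels of -0.49, -8.80, -8.80 and -0.89 with IL-1β and of 3.58, -5.90, -7.36 and 2.68 with Empa, where -8.80 is the floor of the signal scale. It was well above background with both agents on the slides HK-2 replicate 1 and RPTEC replicate 2 and on neither array of the other slides, so that its mean of -2.99 ± 0.44 (adjusted p = 0.0308) rests on 2 measured differences, -4.07 and -3.57. The tight junction gene CLDN1 was higher with IL-1β on each slide, by 2.16, 1.46, 1.30 and 2.34 (mean 1.81 ± 0.24, adjusted p = 0.0266).

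**Figure D4:**
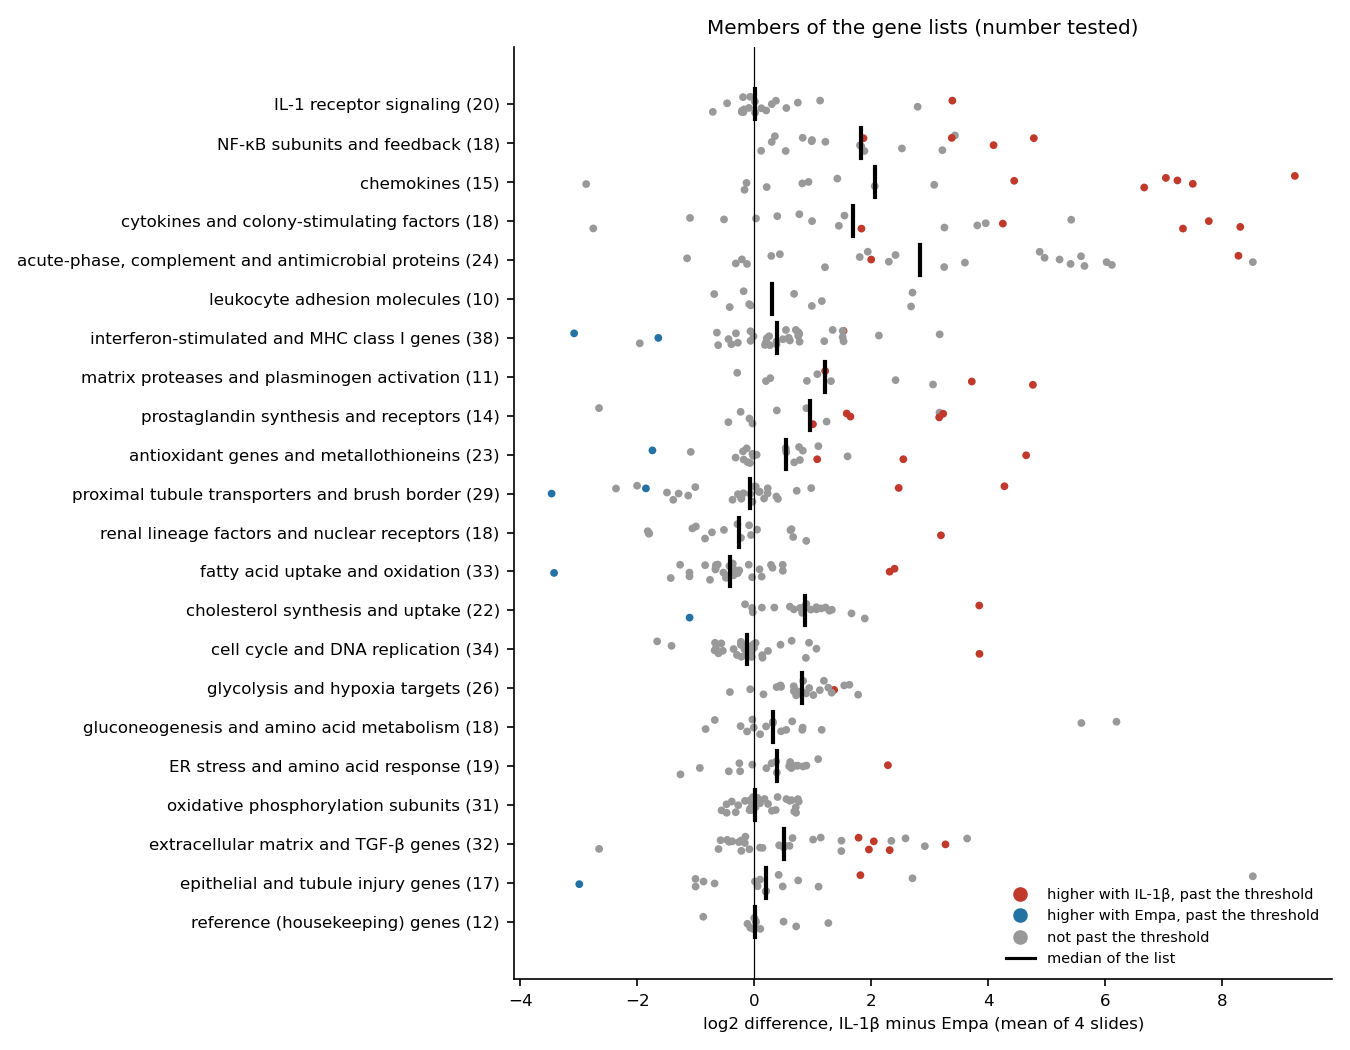
Log2 difference, IL-1β minus Empa, averaged over 4 slides (x axis) for each tested member of 22 gene lists (y axis, with the number tested), red and blue where a gene passed the test and black bars for list medians. The medians ran from 2.83 for acute-phase genes to -0.42 for fatty acid genes, and most members of every list were grey.

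In all, 53 of 493 list genes tested passed, against 3.17% of all genes, and 3 list genes passed without the slide of HK-2 replicate 1 and 0 without that of RPTEC replicate 2. Genes held at their bound, where a treatment was never above background, left every list median as given. No list held more than 1 such gene, which can hardly move a median, so this does not test the medians against dim signals.

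Outside the lists, the 15 widest differences toward IL-1β included ABCA12, a lipid transporter of epithelia, with IL-1β levels of 0.78 to 1.79 and 2 Empa arrays well above background, and TNFAIP6, a hyaluronan-binding protein induced by cytokines. TNFAIP6 was at least 28.4-fold higher with IL-1β (adjusted p = 0.0311) and had no Empa or control array well above background. The adenosine receptor gene ADORA2A was at least 13.5-fold higher (adjusted p = 0.0404), the pseudogene WFDC21P at least 36.8-fold (adjusted p = 0.0233), C1QTNF1 at least 9.65-fold (adjusted p = 0.0312) and GOLGA7B at least 6.94-fold (adjusted p = 0.0215).

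Toward Empa, the 15 widest differences included PDZK1, SLC27A2, IFIT1 and EDN2, described above. MAP2, a microtubule-associated protein, had levels of -3.11, -2.67, -3.58 and -3.56 with IL-1β and of 1.46, -0.25, -0.42 and 0.55 with Empa. The groups did not overlap, the difference was -3.56 ± 0.38 (adjusted p = 0.0179), and the controls lay between -0.32 and 0.60, within the range of the Empa arrays. FGFR2, a fibroblast growth factor receptor, had levels of -0.12, -4.35, -4.13 and -0.47 with IL-1β and of 3.89, -1.57, -1.87 and 2.65 with Empa, and differed within every slide by a mean of -3.04 ± 0.31 (adjusted p = 0.0160). EGR1, an immediate early transcription factor, had levels of -4.50, -1.69, -1.92 and -3.40 with IL-1β and of -0.47, 0.07, 0.52 and 0.43 with Empa, and differed by -3.01 ± 0.42 (adjusted p = 0.0288). On the slides HK-2 replicate 1 and RPTEC replicate 2 the EGR1 controls, at -2.34 and -1.57, lay about midway, and on the other slides, at -0.40 and 0.17, near Empa.

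The GTPase-activating protein gene ARHGAP24 differed by -2.99, -3.43, -3.71 and -3.28 (mean -3.35 ± 0.19, adjusted p = 0.00551), with 1 IL-1β array well above background. VAV3, a guanine nucleotide exchange factor, differed by -2.91 ± 0.32 (adjusted p = 0.0195) and the epidermal factor KDF1 by -3.47 ± 0.48 (adjusted p = 0.0280). VEPH1 (-3.28), CDKL2 (-3.05, with 1 IL-1β array well above background), ANKRD2 (-2.98), the β-thymosin gene TMSB15A (-2.95) and PLEKHH2 (-2.80) completed the 15. TMSB15A was higher with Empa than in the control of its slide on all 4 slides, with levels of -0.17, 2.79, 2.34 and -0.24 against -1.09, 0.92, 0.77 and -0.67.

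The controls lay closer to Empa for most genes. Of the 220 genes higher with IL-1β that had a value on every control array, the control was nearer to the Empa array than to the IL-1β array on all 4 slides for 160 and nearer to IL-1β on all 4 slides for 4. Of 285 such genes higher with Empa, the counts were 168 and 4. The control lay between both agents on all 4 slides for 58 of the 220 and 80 of the 285. These are positions of single arrays, described without a test.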

How the data were processed

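Total RNA was labelled with Cy3 and hybridized to 1-colour Agilent arrays, 12 in all, of which the 8 with IL-1β or Empa were tested. The deposited scanner files hold the intensity of 44495 spots per array, with the processed signal that the authors' scanner software (Feature Extraction 9.5.3.1) had corrected for background. The authors also deposited a normalized log2 table of the same arrays, used as an alternative. Its scale is not stated, and its array medians ran from 6.534 to 8.29. No sequencing depth applies, and the number of slides limits the precision.

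Control spots (1377) and outlier flags were left out, spots of a probe averaged, signals divided by the 75th percentile of their array, floored at 1 unit and log2 transformed. Probes well above background on at least 4 of the 8 arrays, whatever the treatment, were kept (20729 of 34127). Among those that also had a value on all 8 arrays (20314), the probe with the highest mean stood for a gene, leaving 16128 genes. Symbols came from RefSeq tables through 26377 accessions, 2223 symbols and 342 synonyms, and 5185 probes kept the name in the file. limma 3.58.1 (R 4.3.3) was fitted with slide as a block and treatment (residual degrees of freedom, 3). Each ± is the moderated standard error of that fit, which draws the spread of a gene toward a value shared by all genes (prior degrees of freedom, 2.923). It is not the standard error of the 4 slide differences alone. P-values were adjusted over all genes by Benjamini-Hochberg, with a threshold of 0.05, and the 2 arrays of a slide deviated together from the means of their line and treatment (r = 0.600 and 0.799). Such a deviation reflects the gap between the replicate numbers of a labelled line, which the label mismatch enters. It cannot separate an effect of the slide from that gap. An exact permutation of 4 pairs cannot go below p = 0.125, so none was used. A second limma fit tested treatment by labelled line. The 2 slides of a replicate number were scanned on the same day, each in a scan of its own.

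Named genes were the 15 widest differences per direction (passing, in 1 direction on 4 slides, with a RefSeq symbol, and with the brighter treatment above background on all 4 arrays), up to 4 passing members per list, SLC5A2, SLC5A1, CCL2, EDN1, NR1H4, IL1R1 and IL1RN, and the 5 most and 5 least even genes over slides. The comparison, the named genes and the 26 lists (640 genes) were chosen with earlier results of these data known. Alternatives covered the block, normalization, background, filter, probe choice, floor, prior, test and single slides, and median centring was added after the data were seen. The fit was tested on simulated data. Some results that these rules would name are not reported here.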

Additional observations from a re-analysis of the deposited data

Results flagged for a closer look

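Among 80 groups of 4 slide differences looked at, 4 named genes had the slide labelled HK-2 replicate 1 far from the rest, where chance alone flags about 1 in 20 such groups. VEPH1 differed by -3.671 on that slide and by -3.19 to -3.09 on the others. ANKRD2 differed by -4.403 there and by -2.61 to -2.36 elsewhere, and EDN2 by -4.468 there and by -2.56 to -2.19 elsewhere. MMP14 differed by 1.738 on that slide and by 0.97 to 1.07 on the others. In all 4 genes the slide had the wider difference and the same direction as the others, and over all genes tested that slide also had the lowest median difference, -0.24. The part of the slide in these values was not tested.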

How the results depend on the processing

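Against 512 genes, 0 passed with no replicate block (slides not matched; 1348 at an unadjusted p under 0.05), 0 with no filter on dim probes (4415 at an unadjusted p under 0.05), 93 with normexp background correction, 866 in the authors' table, 2214 with all 12 arrays in the fit and 13 with the methods' t-test after Benjamini-Hochberg adjustment (1733 before). Leaving out 1 slide gave 0 to 318 genes. The slides labelled HK-2 alone gave 130, those labelled RPTEC alone 0 (1804 unadjusted), those of replicate 1 alone 351 and those of replicate 2 alone 0 (1946 unadjusted). Of the list members, 53 in the report, 0 passed with no replicate block, 20 with normexp, 0 with no filter, 156 with all 12 arrays (among them 10 of 22 cholesterol genes higher with IL-1β and 12 of 26 glycolysis and hypoxia genes), 0 with the RPTEC slides alone, 68 with the slides of replicate 1 alone and 0 with those of replicate 2 alone, 2 with the t-test, and 0 to 58 without 1 slide. The fits with fewer slides have fewer residual degrees of freedom, and the cause of the other changes was not tested. With normexp, 59 of the 93 were higher with IL-1β (63.4%, against 43.4%), the median over all genes was -0.19, and 3 of the 512 genes turned direction. In the normexp fit the medians of adhesion molecules (-0.10), leukocyte (-0.24), endothelial (-0.28) and fibroblast markers (-0.15) also turned. Median centring gave 498 genes, quantile normalization 464, and all 77 named genes that passed did so again with median centring, with a robust prior and with all 12 arrays. GOLGA7B turned to -1.11 with no filter, where another probe stood for it, SLC5A2 to 0.158 on the RPTEC slides, and IL1RN to 0.00350 in the authors' table and 0.0162 on the RPTEC slides, none of them past the threshold. The test of labelled lines gave 0 genes under each alternative run, with 8 to 1281 at an unadjusted p under 0.05. Since each label holds slides of both correlated pairs, this 0 cannot show that the lines respond alike. Signals near background limit CCL20, CSF2, CCL2, IL11, PLAT, ABCA12, LCN2, CDKN2B, CDKL2, ARHGAP24, VEPH1, ANKRD2, SLC27A2, SLC7A7, CDH1 and the genes given as bounds, each not well above background on 2 or more arrays.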

Other observations

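Each gene was tested above on 1 probe, and its other probes that passed the filter are described here. Of 68 further probes for genes higher with IL-1β, 67 (98.5%) had the same sign, 60 (88.2%) on all 4 slides. Of 63 for genes higher with Empa, 58 (92.1%) had the same sign, 42 (66.7%) on all 4 slides. For genes that did not pass, the sign was shared by 70.8% of 4055 probes. The 6 exceptions among genes that passed were APOLD1, FOXO6, IKZF2, NFATC1, SEMA4D and SVIL, whose further probes gave values between -0.25 and 0.30. PTGS1 (3.53), SLC39A14 (3.30) and FGFR2 (-2.77) had further probes close to the values above, whereas those of FCAMR (3.34), IL6 (4.94) and ASAP3 (-0.44) gave smaller differences, and that of MTARC2 was 0.01 on the slide HK-2 replicate 1 and -1.13 to -0.86 on the others.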
